A study of Mus musculus with 16 samples.

Results

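The desmosome genes described here are 10 genes of mouse epidermis, out of 49585 genes in the deposited count table. They were taken as the rows whose Ensembl identifiers map to 4 desmogleins (Dsg1a, Dsg1b, Dsg2 and Dsg3), 3 desmocollins (Dsc1, Dsc2 and Dsc3) and 3 plaque genes (Dsp, Pkp1 and Jup). All 10 genes were found and all 10 passed the filter on low counts. RNA was sequenced from epidermis that had been separated by heat shock from SKH-1 mice, a hairless strain, aged 8 to 12 weeks. The 4 groups were C/EBPβ knockout epidermis taken 6 h after 100 mJ/cm2 of ultraviolet B light (UVB), K5Cre control epidermis taken 6 h after the same dose, unexposed C/EBPβ knockout epidermis and unexposed K5Cre control epidermis, with 4 libraries in each. The knockout is labelled as specific to the epidermis, and K5Cre is a recombinase driven by the keratin 5 promoter, which is active in basal keratinocytes. The control mice thus carry Cre, and the labels do not spell out the allele that was deleted.

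Desmosomes are spot-like junctions that hold neighbouring keratinocytes together. Desmogleins and desmocollins are cadherins that cross the membrane and bind those of the next cell. Inside the cell their tails bind plakoglobin (Jup) and a plakophilin such as Pkp1, and desmoplakin (Dsp) ties this plaque to the keratin filaments. In epidermis the cadherins are layered: Dsg3 and Dsc3 are known mainly from the lower layers, and Dsg1 and Dsc1 mainly from the upper, differentiating layers. C/EBPβ is a transcription factor that takes part in keratinocyte differentiation.

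The libraries held 33.0 to 53.3 M counts. Cebpb averaged 1.93 ± 1.07 CPM in UVB-exposed knockout epidermis and 291 ± 28.6 CPM in UVB-exposed control epidermis, and 0.574 ± 0.297 CPM in unexposed knockout epidermis against 166 ± 13.7 CPM in unexposed control epidermis (CPM, counts scaled to the library's total with TMM factors; SD, n = 4 each). The log2 fold change was -7.23 (SE 0.45, edgeR adjusted p = 1.71e-06) after UVB and -8.22 (SE 0.49, adjusted p = 9.93e-07) without exposure, so the libraries carried their genotype labels. Of 11 keratinocyte genes, 10 could be tested; the remaining one, Sbsn, had 0 counts in all unexposed libraries. Skeletal and heart muscle markers, which matter here because heart also builds desmosomes, summed to 1.11 CPM at most in any library. Mitochondrial transcripts took 4.33 to 10.2% of the counts, and 5 libraries stood above 8%: UVB-exposed control libraries 1 (8.57%), 3 (9.59%) and 4 (9.65%), unexposed knockout library 4 (10.2%) and unexposed control library 3 (8.57%). The fits were repeated with this percentage in the model and without those 2 unexposed libraries; leaving out the 3 exposed ones would keep 1 library in that group. Where either repeat changed a call, this is said beside the call.

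Levels were compared per kilobase of exon, so that genes of different length can be set side by side. With the union of annotated exons as length, the plaque genes Pkp1 and Dsp stood at the top in every group. For Jup that union is 6436 bases and the longest transcript 3205 bases. The place of Jup in this order thus rests on the length chosen, and the order was not redone with the longest transcript. Pkp1 averaged 348 ± 37.3 CPM per kb in UVB-exposed knockout, 288 ± 59.5 in UVB-exposed control, 308 ± 66.7 in unexposed knockout and 272 ± 23.0 in unexposed control epidermis (SD, n = 4 each). Dsp averaged 282 ± 31.9, 259 ± 50.3, 232 ± 23.0 and 249 ± 17.7 CPM per kb in the same groups, and its libraries overlapped those of Pkp1 in each of them. Dsg1a and Jup came next, at 202 and 184 CPM per kb in UVB-exposed knockout epidermis and at 163 and 148 CPM per kb in unexposed control epidermis, and they overlapped each other in all 4 groups. Dsc3 followed them in all 4 groups (142 CPM per kb in UVB-exposed knockout and 91.9 in unexposed control epidermis), then Dsc1 and then Dsg1b. The last places went to Dsg3, Dsc2 and Dsg2, between 1.72 and 23.6 CPM per kb in group means, and there the order changed between groups. Dsg2 was last after UVB in both genotypes, whereas in unexposed knockout epidermis Dsc2 was last. In unexposed control epidermis the libraries of Dsg3, Dsc2 and Dsg2, the last 3 genes, overlapped from one place to the next.

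**Figure D1:**
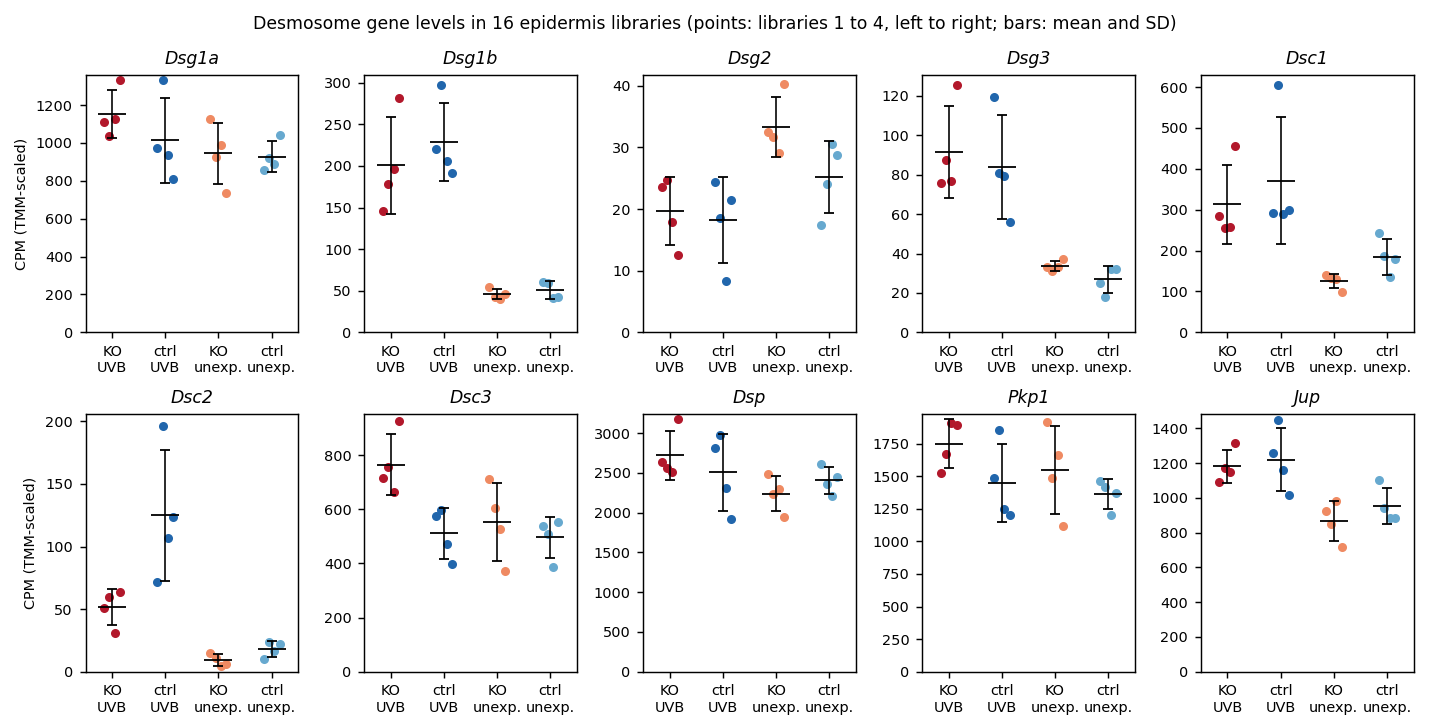
Level of each desmosome gene in CPM (vertical axes, each from 0) in every library (points, libraries 1 to 4 from left to right), with the group mean and SD (black bars) for knockout (KO) and control (ctrl) epidermis after UVB and unexposed. Dsg1b, Dsg3, Dsc1 and Dsc2 stand clearly higher in the UVB-exposed groups, and within those groups knockout library 4 and control library 2 are the highest for 8 of 10 genes each.

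Several desmosomal cadherins rose after UVB in both genotypes. In knockout epidermis 5 of 10 genes rose (Dsc2, Dsg1b, Dsg3, Dsc1 and Jup), Dsg2 fell, and Dsg1a, Dsc3, Dsp and Pkp1 did not pass the test. In control epidermis Dsc2, Dsg1b, Dsg3, Dsc1 and Jup rose and none fell. The steepest rises were those of Dsc2, 5.62-fold in knockout and 6.89-fold in control epidermis, and of Dsg1b, 4.37-fold in knockout and 4.49-fold in control epidermis. At the same threshold (edgeR's quasi-likelihood test, adjusted p under 0.05 over 17741 genes), 32.2% of all tested genes changed with UVB in knockout epidermis, 18.1% upward and 14.1% downward. In control epidermis 35.8% changed, 17.7% upward and 18.0% downward. Exposed and unexposed libraries did not overlap for 7 of 10 genes in knockout epidermis, beside 35.8% of tested genes, and for 4 of 10 genes in control epidermis, beside 33.8%. The median log2 fold change of the 10 genes was 0.46 in knockout and 0.24 in control epidermis, beside 0.01 and -0.02 over all tested genes. In bulk tissue of this kind, fewer cells of a type and less RNA per cell cannot be told apart.

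**Figure D2:**
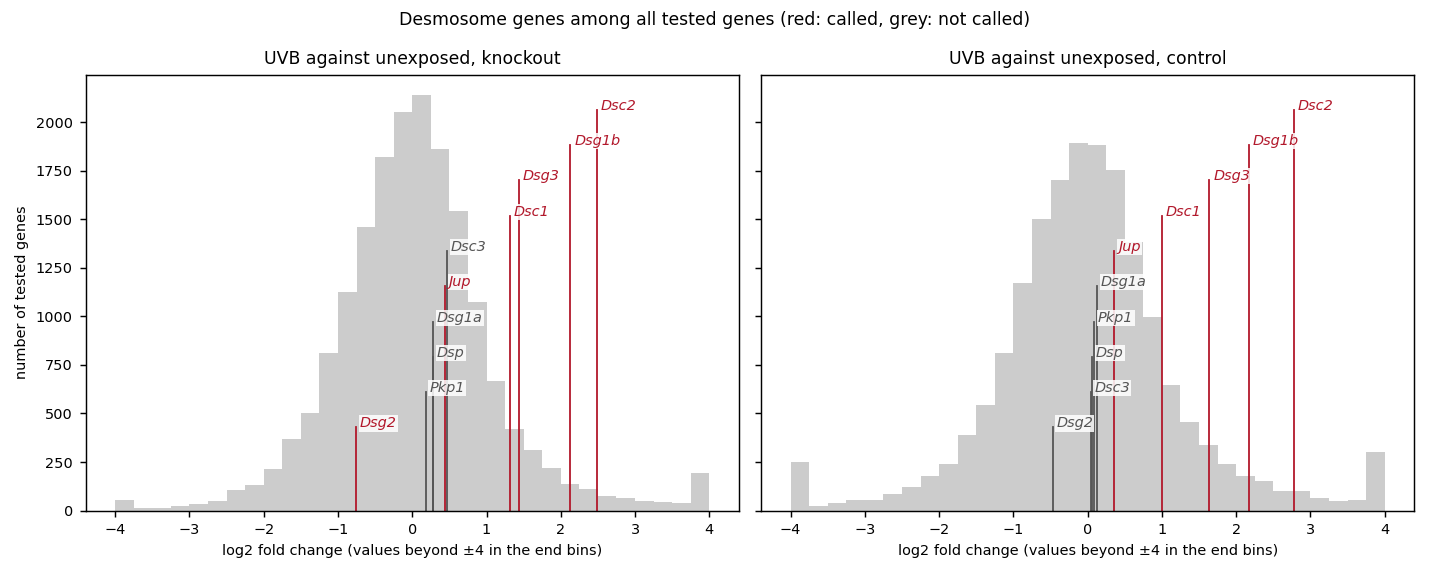
Number of tested genes (vertical axis) by log2 fold change of UVB-exposed over unexposed epidermis (horizontal axis) in knockout (left) and control (right), with the 10 desmosome genes marked in red where called and in grey where not (the heights of these lines carry no value). Dsc2 and Dsg1b lie far out on the upper side in both genotypes, and Pkp1, Dsp and Dsg1a lie near the middle.

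The 7 cadherin genes lie together on chromosome 18, between positions 19960930 and 20604521 of GRCm38, in the GENCODE M21 annotation. Dsc3 (19960930 to 20002351), Dsc2 (20030633 to 20059554) and Dsc1 (20084184 to 20114871) are on the minus strand, and Dsg1a (20310811 to 20343350), Dsg1b (20376729 to 20410196), Dsg3 (20510274 to 20547459) and Dsg2 (20558074 to 20604521) are on the plus strand. Within this cluster Dsc2 and Dsc1 rose with UVB and the adjacent Dsc3 did not pass the test, and Dsg3 rose while the adjacent Dsg2 fell in knockout epidermis.

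Desmoglein 1, the desmoglein of the upper layers, is encoded in the mouse by several closely related genes. Dsg1b had 146, 179, 196 and 282 CPM in UVB-exposed knockout epidermis, against 54.7, 42.0, 40.6 and 46.6 CPM in unexposed knockout epidermis. In control epidermis it had 221, 297, 206 and 192 CPM after UVB, against 60.3, 59.6, 41.0 and 42.7 CPM unexposed. The exposed and unexposed libraries did not overlap in either genotype, and the log2 fold changes were 2.13 (SE 0.19, adjusted p = 1.62e-07) in knockout and 2.17 (SE 0.19, adjusted p = 6.59e-08) in control epidermis. Only 3.56% of tested genes in knockout and 4.93% in control epidermis had a log2 fold change as high.

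Dsg1a, the more abundant copy, did not pass the test in either genotype. It averaged 1151 ± 127 CPM in UVB-exposed knockout and 945 ± 161 CPM in unexposed knockout epidermis, and 1013 ± 223 CPM in UVB-exposed control against 928 ± 82.1 CPM in unexposed control epidermis (SD, n = 4 each). The libraries overlapped in both genotypes (log2 0.28, 95% interval -0.04 to 0.61, adjusted p = 0.186 in knockout; log2 0.13, interval -0.20 to 0.45, adjusted p = 0.579 in control). The transcripts of the copies share long identical stretches: 35.0% of the 50-base windows of Dsg1a, 48.4% of those of Dsg1b and 29.0% of those of the third copy, Dsg1c, also occur in another of the 3, whereas none of the other cadherins shared a window. Reads from such windows can be assigned to either copy or dropped, so the split between Dsg1a and Dsg1b is uncertain. Dsg1c itself was barely counted, with 0 to 54 counts per library.

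Dsg3, the desmoglein of the lower layers, rose in both genotypes. It had 75.9, 87.2, 76.8 and 125 CPM in UVB-exposed knockout epidermis, against 33.0, 31.1, 33.2 and 37.4 CPM in unexposed knockout epidermis. It had 119, 80.6, 79.1 and 55.8 CPM in UVB-exposed control epidermis, against 25.2, 18.1, 32.2 and 32.2 CPM in unexposed control epidermis. Every exposed library was above every unexposed one, with log2 fold changes of 1.44 (SE 0.21, adjusted p = 3.13e-05) in knockout and 1.64 (SE 0.22, adjusted p = 6.13e-06) in control epidermis.

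Dsg2, a desmoglein known mainly from simple epithelia and heart, was the scarcest per kilobase after UVB and fell in knockout epidermis. It had 23.5, 24.7, 17.9 and 12.6 CPM in UVB-exposed knockout epidermis, against 32.5, 31.7, 29.0 and 40.2 CPM in unexposed knockout epidermis. These libraries did not overlap, and the log2 fold change was -0.76 (SE 0.27, adjusted p = 0.0334). In control epidermis it had 24.3, 18.5, 8.25 and 21.5 CPM after UVB, against 17.4, 24.0, 30.5 and 28.7 CPM unexposed, which overlapped, and the log2 difference of -0.47 (SE 0.27, adjusted p = 0.187) did not pass the test. The fall in knockout epidermis is near the threshold: it was lost (adjusted p 0.0523 to 0.0844) when any of UVB-exposed knockout libraries 3 and 4 and unexposed knockout libraries 1, 2 and 4 was left out. It was also lost with the mitochondrial percentage in the model (adjusted p = 0.0551) and without the 2 unexposed libraries above 8% (adjusted p = 0.0881), at log2 fold changes of -0.73 and -0.71. An antisense gene, Gm16090, overlaps Dsg2 and had 260 counts over the 16 libraries, beside 17538 for Dsg2.

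Among the desmocollins Dsc2, which is found in most tissues that build desmosomes, had the largest fold change. It had 51.1, 59.6, 31.2 and 63.7 CPM in UVB-exposed knockout epidermis, against 14.7, 11.1, 4.55 and 6.03 CPM in unexposed knockout epidermis, with a log2 fold change of 2.49 (SE 0.42, adjusted p = 0.000414). It had 72.0, 196, 107 and 124 CPM in UVB-exposed control epidermis, against 10, 23.8, 16.3 and 22.4 CPM in unexposed control epidermis, with a log2 fold change of 2.78 (SE 0.43, adjusted p = 0.000156). Exposed and unexposed libraries did not overlap in either genotype, and 2.65% of tested genes in knockout and 3.12% in control epidermis had a log2 fold change at least as high.

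Dsc1, the desmocollin of the upper layers, rose less steeply from a higher level. It had 284, 256, 258 and 457 CPM in UVB-exposed knockout epidermis, against 141, 133, 129.9 and 99.3 CPM in unexposed knockout epidermis (log2 fold change 1.32, SE 0.25, adjusted p = 0.000477). It had 292, 605, 289 and 299 CPM in UVB-exposed control epidermis, against 242, 187, 134 and 179 CPM in unexposed control epidermis (log2 fold change 1.00, SE 0.25, adjusted p = 0.00395). The groups did not overlap, but 1 library stood far above the others in each exposed group, library 4 of the knockout and library 2 of the control. Without knockout library 4 the log2 fold change in knockout epidermis was 1.03 (adjusted p = 0.00295), and without control library 2 that in control epidermis was 0.60 (adjusted p = 0.0246), so that the call stayed and the estimate was smaller.

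Dsc3, the most abundant desmocollin, hardly moved in control epidermis. It averaged 511 ± 93.6 CPM in UVB-exposed control and 497 ± 75.1 CPM in unexposed control epidermis (log2 0.04, 95% interval -0.33 to 0.42, adjusted p = 0.886). In knockout epidermis it had 716, 756, 662 and 924 CPM after UVB, against 712, 603, 526 and 371 CPM unexposed. These groups overlapped through unexposed library 1, and the log2 difference of 0.47 (SE 0.18, 95% interval 0.09 to 0.84, adjusted p = 0.0533) missed the threshold narrowly. It passed with limma voom (adjusted p = 0.0297), with the mitochondrial percentage in the model (adjusted p = 0.0193), and when UVB-exposed knockout library 3 (adjusted p = 0.0468) or unexposed knockout library 1 (adjusted p = 0.0159) was left out. The estimate was smaller without UVB-exposed knockout library 4 (log2 0.31, adjusted p = 0.281), without unexposed knockout library 4 (log2 0.27, adjusted p = 0.281) and without the 2 unexposed libraries above 8% mitochondrial counts (log2 0.26, adjusted p = 0.252).

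The rises of Dsg1b, Dsg3, Dsc1 and Dsc2 passed the test in both genotypes under every alternative fit that was run. With any 1 library left out, the log2 fold change of Dsg1b in knockout epidermis lay between 1.86 and 2.25, and that of Dsc2 between 2.27 and 2.82. Some markers of other cells and layers also differed with exposure. Of 13 tested hair follicle markers, 4 rose with UVB in knockout and 1 in control epidermis, and none fell. Over all tested genes 18.1% rose in knockout and 17.7% in control epidermis. Krt17, a keratin of follicles that is also known from stressed epidermis, rose 3.50-fold in knockout and 4.35-fold in control epidermis. The summed level of the follicle list ran from 5299 to 10290.3 CPM in UVB-exposed knockout against 2289 to 3346 CPM in unexposed knockout libraries, and from 4379 to 9462 CPM in UVB-exposed control against 1785 to 3881 CPM in unexposed control libraries. Without Krt17 these sums overlapped in both genotypes, at 1541 to 6769 CPM in UVB-exposed knockout against 1413 to 2067 CPM in unexposed knockout libraries, and at 2083 to 6468 CPM in UVB-exposed control against 1229 to 3121 CPM in unexposed control libraries.

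Of 10 granular genes, 2 rose and 4 fell with UVB in knockout epidermis, and 2 rose and 3 fell in control epidermis. For these lists, the shares over all tested genes were 18.1% up and 14.1% down in knockout epidermis. In control epidermis they were 17.7% up and 18.0% down. Lce1b, a cornified envelope gene, fell by 1.03 in knockout and 1.08 in control epidermis on the log2 scale, and Flg (filaggrin) fell by 1.25 and 0.78. Tgm3, another granular gene, rose by 2.0 in knockout and 2.05 in control epidermis. The summed granular list ran from 18749 to 23485 CPM in UVB-exposed knockout against 24141 to 39624 CPM in unexposed knockout libraries, and from 30913.5 to 35297 CPM in UVB-exposed control against 35472 to 51501 CPM in unexposed control libraries. Of 8 basal genes, 1 rose and 1 fell in knockout, and 1 rose and 3 fell in control epidermis. Krt15, a basal keratin, fell by 1.29 in knockout and 1.97 in control epidermis on the log2 scale. Itga3 was the basal gene that rose, by 0.99 in knockout and 0.72 in control epidermis. Of 7 Langerhans cell markers only Cd207 (langerin) was called, 2.09-fold higher in UVB-exposed knockout and 1.73-fold higher in UVB-exposed control epidermis. In unexposed libraries the summed basal list ran from 2828 to 6580 CPM in knockout and from 1873 to 2727 CPM in control epidermis, and the Langerhans list from 394 to 732 CPM in knockout and from 214 to 465 CPM in control epidermis; the sums after UVB stand with the genotype comparison. The part of these cells and layers in the rise of the desmosome genes was not tested.

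**Figure D3:**
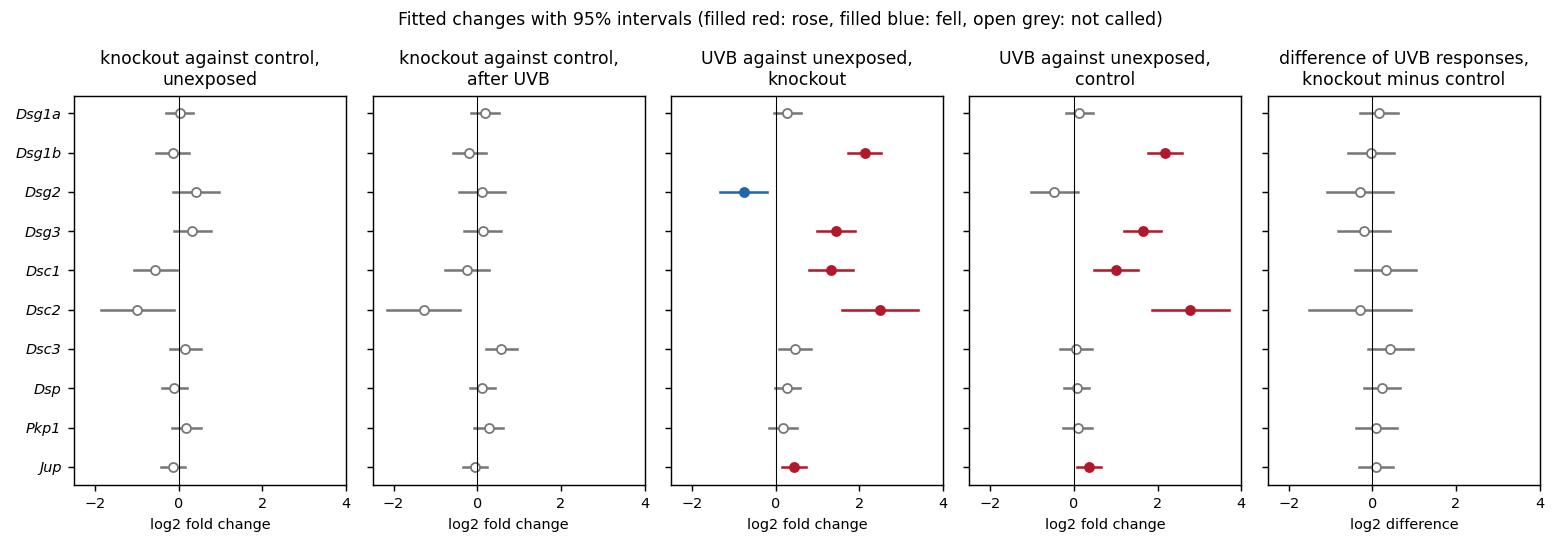
Fitted log2 fold change of each desmosome gene (points) with its 95% interval (lines) in the 4 comparisons, and the log2 difference between the UVB responses at the right; filled red points rose, filled blue points fell and open grey points did not pass the test. Called points appear only in the UVB comparisons, and the intervals of Dsc2 are the widest.

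The plaque genes showed smaller differences. Plakoglobin (Jup), which binds the tails of desmosomal and classical cadherins, is the plaque gene that rose. It had 1090.0, 1172, 1147 and 1315 CPM in UVB-exposed knockout epidermis, against 923, 851, 983 and 715 CPM in unexposed knockout epidermis, with no overlap. It had 1256, 1448, 1160.1 and 1019 CPM in UVB-exposed control epidermis, against 1101, 942, 885 and 883 CPM in unexposed control epidermis, where unexposed library 1 was above exposed library 4. The rise was 1.36-fold in knockout (log2 0.44, SE 0.14, adjusted p = 0.0157) and 1.28-fold in control epidermis (log2 0.36, SE 0.14, adjusted p = 0.0462).

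The Jup calls depend on few libraries. In knockout epidermis the call was lost without exposed library 4 (adjusted p = 0.11) or unexposed library 4 (adjusted p = 0.106). In control epidermis it was lost (adjusted p 0.0676 to 0.282) without any of exposed libraries 1, 2 and 3 and unexposed libraries 2, 3 and 4. The smallest log2 fold change among these, 0.20, came without exposed control library 2. It was lost in both genotypes with upper-quartile scaling (adjusted p = 0.0511 in knockout and 0.0747 in control), with only the compared groups in the fit (adjusted p = 0.0525 and 0.0616), and without the 2 unexposed libraries above 8% mitochondrial counts (adjusted p = 0.11 and 0.155). With no filter on low counts it was lost in control epidermis (log2 0.29, adjusted p = 0.138). Jup lies on chromosome 11 (100368958 to 100397763, minus strand, GRCm38).

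Dsp and Pkp1, at the top of the order of levels per kilobase of union exon, did not pass the test with UVB. Desmoplakin (Dsp, chromosome 13, 38151294 to 38198577, plus strand) had 2636, 2564, 2513 and 3178 CPM in UVB-exposed knockout epidermis, against 2479, 2232, 2294 and 1944 CPM in unexposed knockout epidermis. These libraries did not overlap, yet the log2 difference was 0.28 (SE 0.15, 95% interval -0.02 to 0.59, adjusted p = 0.158). In control epidermis Dsp averaged 2505 ± 486 CPM after UVB and 2407 ± 171 CPM unexposed (SD, n = 4 each), with a log2 difference of 0.06 (interval -0.25 to 0.36, adjusted p = 0.803). Plakophilin 1 (Pkp1, chromosome 1, 135871395 to 135919207, minus strand), which helps desmosomal cadherins to cluster, averaged 1749.6 ± 187.5 CPM in UVB-exposed knockout and 1546 ± 335 CPM in unexposed knockout epidermis (log2 0.18, interval -0.17 to 0.52, adjusted p = 0.472). It averaged 1449 ± 299 CPM in UVB-exposed control and 1365 ± 116 CPM in unexposed control epidermis (log2 0.09, interval -0.26 to 0.43, adjusted p = 0.733). An interval that reaches 0.59 for Dsp does not show that its level stayed the same.

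The stretches just upstream of Jup, which rose with UVB, and of Dsp, which did not pass that test, are shown as the only promoters among the 10 genes that the RefSeq table used here holds (GRCm38.p6). Each is the 250 bases before the RefSeq start, 5′ to 3′ on the gene's strand. The Jup stretch is chr11:100397791-100398040 and the Dsp stretch is chr13:38151044-38151293. Capitals mark GC boxes (GGGCGG, read as CCGCCC on the other strand) and CCAAT boxes (CCAAT, either strand).
Jup: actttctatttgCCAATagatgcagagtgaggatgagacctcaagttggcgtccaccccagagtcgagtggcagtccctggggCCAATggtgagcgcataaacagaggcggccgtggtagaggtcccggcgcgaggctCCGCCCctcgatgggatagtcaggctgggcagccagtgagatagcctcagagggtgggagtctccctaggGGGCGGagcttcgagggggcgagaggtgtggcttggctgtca
Dsp: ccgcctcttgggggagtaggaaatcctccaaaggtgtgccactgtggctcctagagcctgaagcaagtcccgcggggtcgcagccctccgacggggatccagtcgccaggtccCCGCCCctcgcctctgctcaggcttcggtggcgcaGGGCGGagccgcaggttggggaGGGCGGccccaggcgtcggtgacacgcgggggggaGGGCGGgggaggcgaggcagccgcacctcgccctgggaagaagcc
The Jup stretch holds 2 GC boxes and 2 CCAAT boxes, and the Dsp stretch holds 4 GC boxes and no CCAAT box. GC boxes occur in 32.7% and CCAAT boxes in 33.8% of 32851 RefSeq promoter stretches of the same length. G and C make up 62.0% of the Jup stretch and 72.4% of the Dsp stretch. Neither holds a match to a C/EBP-type motif (TTGCNNAA, in 9.56% of promoters), to an AP-1 motif (TGANTCA, in 6.75%) or to a Grainyhead-type motif (AACNGGTT, in 1.79%), all read on both strands. No match says only that these letters are not in these windows.

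Loss of C/EBPβ moved no desmosome gene past the threshold. Without exposure 0 of 10 were called between knockout and control epidermis, where 2.10% of tested genes were called (171 higher, 0.964%, and 202 lower, 1.14%; 180 higher and 136 lower with upper-quartile scaling). After UVB 0 of 10 were called, where 4.68% of tested genes were called (418 higher, 2.36%, and 412 lower, 2.32%). The median log2 fold change of the 10 genes was -0.04 without exposure and 0.12 after UVB, beside 0.00 and 0.04 over all tested genes. At an unadjusted p under 0.05, edgeR listed 2 of 10 genes in each comparison, Dsc1 and Dsc2 without exposure and Dsc2 and Dsc3 after UVB, beside 12.4% and 20.3% of all tested genes, so the members' share is near the background. Without exposure DESeq2 and limma voom called 0 of 10 as well.

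The 2 genes nearest to a genotype difference are desmocollins, and they lie on opposite sides. After UVB Dsc2 had 51.1, 59.6, 31.2 and 63.7 CPM in knockout epidermis, against 72.0, 196, 107 and 124 CPM in control epidermis. Every knockout library was below every control library, and the log2 fold change was -1.28 (SE 0.40, 95% interval -2.15 to -0.41, adjusted p = 0.0874). DESeq2 (adjusted p = 0.0201) and limma voom (adjusted p = 0.0435) called Dsc2 lower, at log2 fold changes of -1.31 and -1.25. With edgeR, 0 of 8 fits that each left out 1 library called it (adjusted p 0.0695 to 0.186). The edgeR fit with no filter on low counts did not call it either (adjusted p = 0.175). Without UVB-exposed control library 2 the log2 fold change was -0.96 (adjusted p = 0.158). Without exposure Dsc2 averaged 9.10 ± 4.69 CPM in knockout and 18.1 ± 6.28 CPM in control epidermis (SD, n = 4 each), with overlapping libraries (log2 -0.99, SE 0.41, interval -1.86 to -0.11, adjusted p = 0.319).

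Dsc3 had 716, 756, 662 and 924 CPM in UVB-exposed knockout epidermis, against 576, 598, 473 and 397 CPM in UVB-exposed control epidermis. Here every knockout library was above every control library, with a log2 fold change of 0.58 (SE 0.18, 95% interval 0.20 to 0.96, adjusted p = 0.0688). DESeq2 (adjusted p = 0.0407), a fit with no filter on low counts (adjusted p = 0.0484) and the fit without UVB-exposed control library 2 (adjusted p = 0.0384) called Dsc3 higher. Of 8 edgeR fits that each left out 1 library, only that without control library 2 called Dsc3. Over these 8 fits the log2 fold change ran from 0.46 to 0.68 and the adjusted p from 0.0384 to 0.182. Mitochondrial transcripts took 5.44 to 5.99% of the counts in the UVB-exposed knockout libraries and 5.24 to 9.65% in the UVB-exposed control libraries. With that percentage in the model the log2 fold change of Dsc3 was 0.30 and its adjusted p 0.42, and that of Dsc2 was -1.55 (adjusted p = 0.10). Dsc2 and Dsc3 were the 2 of 10 genes whose knockout and control libraries did not overlap after UVB, where 11.3% of tested genes did not overlap. Without exposure Dsc3 averaged 553 ± 143 CPM in knockout and 497 ± 75.1 CPM in control epidermis (log2 0.15, adjusted p = 0.884).

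Dsc1 averaged 126 ± 18.1 CPM in unexposed knockout and 186 ± 44.1 CPM in unexposed control epidermis (log2 -0.56, SE 0.25, 95% interval -1.08 to -0.04, adjusted p = 0.347). After UVB it averaged 314 ± 96.3 CPM in knockout and 371 ± 156 CPM in control epidermis (log2 -0.24, interval -0.76 to 0.27, adjusted p = 0.645). That estimate turned to 0.12 (adjusted p = 0.782) without control library 2, the library with 605 CPM. The remaining 7 genes lay between -0.15 and 0.41 without exposure and between -0.19 and 0.27 after UVB on the log2 scale. Among these 7 the widest interval was that of Dsg2, -0.15 to 0.96 without exposure and -0.44 to 0.67 after UVB, so a difference of that size in Dsg2 was not resolved.

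Markers of the epidermal layers differed between the genotypes as well. Among all tested genes, 0.964% were higher and 1.14% lower in knockout epidermis without exposure, and 2.36% were higher and 2.32% lower after UVB. Of 8 basal genes, 3 were higher in knockout epidermis without exposure and 5 after UVB. Krt14, a basal keratin, was 2.83-fold higher in unexposed knockout epidermis (adjusted p = 0.0466), and Krt5, its partner, was 2.20-fold higher in UVB-exposed knockout epidermis (adjusted p = 0.00641). Of 10 granular genes, 1 was lower in knockout epidermis without exposure and 3 after UVB, among them Lor (loricrin), 1.87-fold lower after UVB (adjusted p = 0.0105), and of 6 tested spinous genes, 1 and 2 were lower. The summed basal list ran from 4624 to 6548 CPM in UVB-exposed knockout and from 1879 to 3972 CPM in UVB-exposed control libraries, and the granular list from 18749 to 23485 CPM in knockout and from 30913.5 to 35297 CPM in control libraries. Langerhans cell markers were higher in knockout epidermis for 1 of 7 genes without exposure and 4 of 7 after UVB, with sums of 664 to 853 CPM in UVB-exposed knockout and 339 to 509 CPM in UVB-exposed control libraries. Of 6 tested fibroblast markers only Postn was called, and of 3 tested endothelial markers only Flt1, both higher in knockout epidermis in both states. The endothelial gene Pecam1 lay the other way after UVB, at 0.547 to 1.85 CPM in knockout and 2.13 to 2.47 CPM in control libraries. Unexposed, its libraries overlapped, at 0.796 to 2.72 CPM in knockout and 0.576 to 1.89 CPM in control. None of the T cell, melanocyte, sebaceous gland or muscle markers was called between the genotypes. Of the follicle markers, Krt79 was higher in knockout epidermis after UVB. Their part in the desmocollin values was not tested.

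The levels of the desmocollins were also set out as shares of their sum. Dsc3 made up 66.7 ± 2.98% of the summed desmocollin level per kilobase in UVB-exposed knockout and 50.3 ± 7.95% in UVB-exposed control epidermis (SD, n = 4 each). Its share was 79.0 ± 1.87% in unexposed knockout and 69.7 ± 2.34% in unexposed control epidermis. For Dsc3, knockout and control libraries did not overlap in either state, at 62.5 to 69.3% against 41.3 to 59.8% after UVB and at 76.7 to 81.1% against 66.6 to 72.1% unexposed. Dsc2 held 4.54 ± 0.968% in UVB-exposed knockout and 12.2 ± 3.23% in UVB-exposed control epidermis, and 1.30 ± 0.441% in unexposed knockout and 2.65 ± 0.932% in unexposed control epidermis. Dsc1 held 28.8 ± 3.27% and 37.5 ± 5.36% after UVB, and 19.7 ± 2.15% and 27.7 ± 3.13% unexposed, in knockout and control epidermis. The Dsc2 shares of the genotypes overlapped unexposed, at 0.695 to 1.72% in knockout and 1.28 to 3.32% in control libraries, and the Dsc1 shares overlapped after UVB, at 25.1 to 33.1% in knockout and 32.5 to 44.8% in control libraries. These shares are a description with no test, and the share of Dsc3 is bound to fall where those of Dsc1 and Dsc2 rise.

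**Figure D4:**
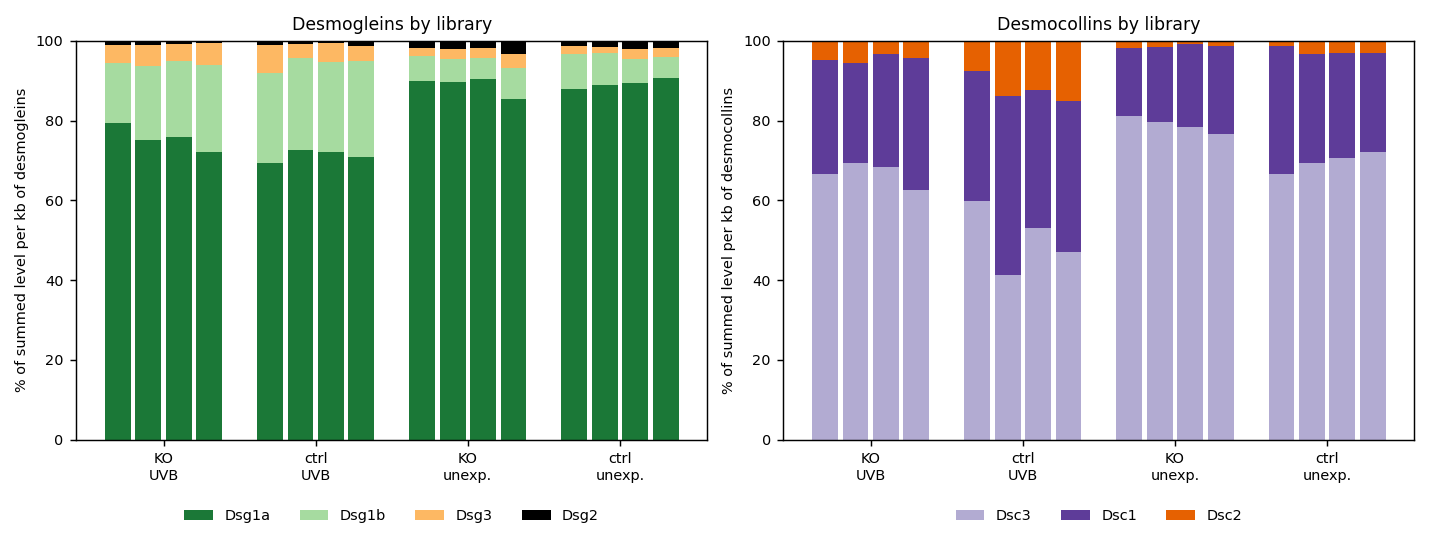
Share of each gene (colours) in the summed level per kilobase of the desmogleins (left) and desmocollins (right), in percent, with 1 bar per library for knockout (KO) and control (ctrl) epidermis after UVB and unexposed. The Dsc3 share is 62.5 to 69.3% in the UVB-exposed knockout libraries and 41.3 to 59.8% in the UVB-exposed control libraries, and the Dsg1b share is larger in all UVB-exposed libraries than in any unexposed one.

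Within the desmogleins, the Dsg1b share did not overlap between exposed and unexposed libraries. Dsg1b held 18.6 ± 2.85% of the summed desmoglein level in UVB-exposed knockout and 23.1 ± 0.661% in UVB-exposed control epidermis, against 6.28 ± 1.05% in unexposed knockout and 7.08 ± 1.73% in unexposed control epidermis (SD, n = 4 each). After UVB its share did not overlap between the genotypes either, at 14.9 to 21.9% in knockout and 22.6 to 24.0% in control libraries. The level of Dsg1b itself did overlap there and did not pass the test (log2 -0.19, edgeR adjusted p = 0.634). Dsg1a held 75.6 ± 3.04% and 71.1 ± 1.41% after UVB, against 88.8 ± 2.24% and 89.2 ± 1.21% unexposed, in knockout and control epidermis. Dsg3 held 4.83 ± 0.613% and 4.85 ± 1.49% after UVB, against 2.65 ± 0.606% and 2.11 ± 0.510% unexposed, and Dsg2 held at most 3.21% in any library. The shares of Dsg1a and Dsg1b carry the uncertainty of their shared sequence. Summed over the family, the desmogleins averaged 268 ± 38.4 CPM per kb in UVB-exposed knockout, 250.0 ± 51.9 in UVB-exposed control, 187 ± 28.4 in unexposed knockout and 183 ± 13.9 in unexposed control epidermis. The desmocollins averaged 213 ± 41.4, 192 ± 51.5, 129 ± 30.7 and 132 ± 21.2 CPM per kb in the same groups.

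The difference between the UVB responses of knockout and control epidermis was tested itself, and 0 of 10 genes were called, as were 0.00% of all tested genes with edgeR. At an unadjusted p under 0.05 there were 1043 genes (5.88%), with 0 of the 10 among them, and DESeq2 called 31 genes, again with 0 of the 10. The estimates ran from -0.29 for Dsg2 (95% interval -1.08 to 0.49) and Dsc2 (interval -1.51 to 0.93) to 0.43 for Dsc3 (interval -0.11 to 0.96, adjusted p = 0.893). The fall of Dsg2 that was called in knockout and not in control epidermis is therefore not shown to differ between them. For Dsg1b, which rose in both genotypes, the difference was -0.04 (interval -0.59 to 0.51).

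The libraries of a group differed together in these genes. UVB-exposed knockout library 4 had the highest level of its group for 8 of 10 genes, and UVB-exposed control library 2 for 8 of 10. UVB-exposed control library 4 had the lowest for 7 of 10, and unexposed knockout library 4, the library with 10.2% mitochondrial counts, had the lowest for 6 of 10 and the highest for Dsg2 and Dsg3. Unexposed knockout library 1 had the highest for 7 of 10. Libraries also differed in the share of counts taken by the gene Gm42418. It was 7.52% in unexposed knockout library 4, 6.64% in UVB-exposed control library 4 and 7.93% in unexposed control library 2. Elsewhere it lay between 0.653 and 4.08%. Unexposed control library 2 had the lowest level for only 1 of 10 genes. The part of this share was not tested. The coefficient of variation within a group reached 51.5% for Dsc2, in unexposed knockout epidermis, and stayed between 7.09 and 21.7% for Dsp, Pkp1 and Jup.

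Of 11 further desmosome-related genes, 5 rose and 1 fell with UVB in knockout epidermis, and 4 rose and 1 fell in control epidermis. Over all tested genes 32.2% changed with UVB in knockout and 35.8% in control epidermis. None of the 11 was called between the genotypes, without exposure or after UVB, beside 2.10% and 4.68% of all tested genes. Pkp3, the other main plakophilin of epidermis, rose 1.93-fold in knockout (adjusted p = 1.21e-05) and 2.37-fold in control epidermis (adjusted p = 3.71e-07). Evpl, which encodes the plakin envoplakin of the cornified envelope, rose 2.0-fold in knockout (adjusted p = 4.26e-06) and 1.81-fold in control epidermis (adjusted p = 1.70e-05). Tmem79, known for its part in lamellar granule secretion, rose 2.13-fold in knockout (adjusted p = 9.41e-06) and 2.26-fold in control epidermis (adjusted p = 2.77e-06), and Pkp4 fell by 0.68 (adjusted p = 0.00441) and 0.52 (adjusted p = 0.0235) on the log2 scale. Cdsn, the corneodesmosome protein of the outermost layers, rose 1.55-fold in knockout (adjusted p = 0.00499) and 1.64-fold in control epidermis (adjusted p = 0.00191). Perp, Ppl and Pof1b did not pass the test, and Pkp2, the plakophilin of heart, stayed at 1.58 CPM or below in every library. Dsg4, a desmoglein of the hair follicle, rose in knockout epidermis (adjusted p = 0.0175), at 0.640 to 9.85 CPM in exposed and 0.00 to 0.832 CPM in unexposed libraries, and did not pass the test in control epidermis (adjusted p = 0.16), at 1.67 to 8.71 CPM exposed and 0.425 to 1.53 CPM unexposed.

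Genes of the other junctions changed in both directions with UVB, beside 32.2% of all tested genes in knockout and 35.8% in control epidermis. Of 9 gap junction genes, 3 rose and 1 fell in knockout epidermis, and 3 rose and 2 fell in control epidermis. Gjb2, which encodes connexin 26, rose 6.30-fold in knockout and 12.0-fold in control epidermis, and Gjb6, which encodes connexin 30, rose 6.39-fold and 9.01-fold, whereas Gjb5 fell by 1.18 and 1.54 on the log2 scale. Of 12 adherens junction genes, 5 rose and 2 fell in knockout and 4 rose and 3 fell in control epidermis. The β-catenin gene Ctnnb1, a relative of Jup, rose 2.05-fold in knockout (adjusted p = 0.000124) and 1.71-fold in control epidermis (adjusted p = 0.00152). Of 13 tested tight junction genes, 4 rose and 5 fell in knockout and 3 rose and 6 fell in control epidermis, with Patj, a polarity scaffold, at -1.80 and -1.46 on the log2 scale. Between the genotypes only Nectin2 (log2 -0.67, adjusted p = 0.0137) and Cgn (log2 -0.58, adjusted p = 0.0484) were called among these 3 lists. Both were lower in knockout epidermis after UVB, where 4.68% of all tested genes were called.

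Genes that act on desmosomes were counted in the same way. With UVB, 18.1% of all tested genes rose and 14.1% fell in knockout, and 17.7% rose and 18.0% fell in control epidermis. Between the genotypes 2.10% of all tested genes were called without exposure and 4.68% after UVB. Of 20 genes for turnover and signalling, 7 rose and 3 fell in knockout and 8 rose and 4 fell in control epidermis with UVB. None of the 20 was called between the genotypes. Klk6, a secreted kallikrein protease, rose 2.75-fold in knockout (adjusted p = 0.00022) and 4.94-fold in control epidermis (adjusted p = 2.12e-06), and Ctsd, a lysosomal protease, rose 2.56-fold in knockout (adjusted p = 0.000755) and 1.94-fold in control epidermis (adjusted p = 0.00918). Zdhhc5, a palmitoyltransferase, rose 2.12-fold in knockout and 2.16-fold in control epidermis. Gsk3b, a kinase, fell by 1.03 in knockout and 0.93 in control epidermis on the log2 scale. Of 15 transcription factors known for desmosome genes or keratinocyte differentiation, 6 rose with UVB in knockout epidermis and none fell, and 7 rose and 1 fell in control epidermis, with none called between the genotypes. Grhl1, a Grainyhead factor known to act on Dsg1, rose 1.44-fold in knockout epidermis (adjusted p = 0.0032) and stood 1.20-fold higher after UVB in control epidermis, which did not pass the test (adjusted p = 0.127). Cebpa, the related C/EBPα, rose 1.75-fold in knockout (adjusted p = 0.000346) and 1.62-fold in control epidermis (adjusted p = 0.00125). Sox9 rose 1.73-fold in knockout and 1.99-fold in control epidermis.

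The genes whose pattern was most like that of a desmosome gene were taken as the 3 with the highest Pearson correlation of log2 CPM over the 16 libraries, among 8316 genes that averaged 10 CPM or more. They are a description only, since the points share library depth and the exposure itself. Dsg1b was matched most closely by Ccdc71l (r = 0.989), Dhrs1 (r = 0.986) and Zdhhc5 (r = 0.985). Dsg3 was followed by Nras (r = 0.974), Dsc1 by Vps4b (r = 0.966) and Dsc2 by Plpp6 (r = 0.953). Vps4b was also among the 3 genes nearest to Dsc2 (r = 0.946). Jup was matched by Ly6d (r = 0.972) and Fam43a (r = 0.971), and Dsc3 by Cap1 (r = 0.949). The closest matches of the remaining genes were Qars for Dsg1a (r = 0.904), Trim29 for Dsp (r = 0.910), Txn1 for Pkp1 (r = 0.908) and Cpsf3 for Dsg2 (r = 0.870).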

How the data were processed

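RNA was measured in 16 libraries, 4 in each of 4 groups, made with a directional NEBNext kit per the labels' protocols. The deposited table holds raw counts per Ensembl gene, whole numbers that the authors made with STAR and HTSeq per the submitters' processing notes, which also name FastQC and DESeq2. No version, genome build or strand setting is given in the sources used here. Of 49585 identifiers, 49326 had a symbol in GENCODE M21.

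A robust quasi-likelihood model was run in edgeR 4.0.16 (R 4.3.3) on those counts. The filterByExpr function kept 17741 genes, TMM factors (0.867 to 1.26) scaled the libraries, and each of the 4 groups had its own mean in a joint fit of all 16. Tests were two-sided and adjusted by Benjamini-Hochberg over all 17741 genes, and a gene was called at an adjusted p under 0.05. The SE is the log2 fold change over the square root of F. CPM values are TMM-scaled, and levels per kilobase divide by the union of annotated exons. The procedure was checked on simulated counts with known changes, and how often changes of the sizes reported here would be called is not given. Alternatives were upper-quartile and DESeq2 size factor scaling, no filter, DESeq2 1.42.0, limma 3.58.1 (voom), fits to the compared groups only, the longest transcript as length, and each library left out. The mitochondrial percentage as a covariate, and leaving out 2 libraries, were chosen after seeing the data.

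The members and gene lists were chosen with earlier results of these data known. The text names all 10 desmosome genes, Cebpb, and from each list up to 4 called genes with the smallest p. Cdsn in knockout epidermis, Pkp4, Cebpa, Grhl1 and Ctsd in control epidermis, Dsg4, and the genes of a list named as not called were added after their values were seen. The common biological coefficient of variation was 0.445, and replicates differed by more than counting error (lowest chi-square per degree of freedom 41.75). Nothing in the labels ties each library to its own animal; the p-values then reflect only the spread among these samples, which may be technical. Other software was matplotlib 3.10.9, numpy 2.4.6 and pandas 2.3.3 under Python 3.11.15.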

Additional observations from a re-analysis of the deposited data

Results flagged for a closer look

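Of 40 groups of 4 libraries examined (10 genes in 4 groups), 2 held a library far from the others, and chance flags about 1 in 20 groups. Both concern Dsc1 after UVB. Knockout library 4 had 456.8 CPM of Dsc1, while the other 3 libraries of its group had 255.8 to 284.4 CPM. Control library 2 had 605.4 CPM of Dsc1, while the other 3 libraries of its group had 289.2 to 298.9 CPM. The same 2 libraries had the highest level of their group for 8 of the 10 desmosome genes each, and their mitochondrial percentages, 5.99% and 5.24%, were the highest and the lowest of their groups.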

How the results depend on the processing

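No paired analysis was possible because the labels give no replicate numbers that join libraries across groups. Of 860 fold changes of the 10 genes recomputed under alternatives, 786 kept their direction and side of the threshold, 22 lost a call, 9 gained one and 43 changed sign, none of these called. After UVB, DESeq2 called 2 of the 10 genes between knockout and control, limma voom 1, the unfiltered fit 1, and fits without 1 library 0 to 1. Calls over all genes moved to 742 without exposure, 1493 after UVB and 31 for the difference of responses with DESeq2, to 187 without exposure when the 2 libraries above 8% mitochondrial counts were left out, to 401 after UVB with the mitochondrial percentage in the model, and to 2 for the difference without the filter. Without 1 library they were 134 to 435 without exposure, 419 to 1356 after UVB and 0 to 2 for the difference.

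Sign changes were all in small values. With the mitochondrial percentage in the model, knockout against control gave -0.01 for Dsg1a unexposed and, after UVB, -0.0024 for Pkp1, -0.03 for Dsp and -0.03 for Dsg1a, and the difference of responses gave -0.06 for Jup, -0.13 for Pkp1 and -0.01 for Dsg1a. Without the 2 libraries, UVB gave -0.0032 for Pkp1 in knockout and -0.03 for Pkp1, -0.04 for Dsp and -0.12 for Dsc3 in control, and the difference was 0.06 for Dsg1b. Without the filter, UVB in control gave -0.01 for Dsp and -0.03 for Dsc3. With 1 library left out, knockout against control after UVB ran from -0.47 to 0.12 for Dsc1, -0.15 to 0.29 for Dsg2, -0.05 to 0.34 for Dsg3, -0.0081 to 0.23 for Dsp and -0.15 to 0.06 for Jup, and unexposed from -0.07 to 0.15 for Dsg1a. UVB in control ran from -0.10 to 0.14 for Dsc3, -0.09 to 0.22 for Dsg1a, -0.10 to 0.17 for Dsp and -0.12 to 0.17 for Pkp1. The difference ran from -0.52 to 0.04 for Dsc2, -0.25 to 0.12 for Dsg1b, -0.04 to 0.18 for Jup and -0.08 to 0.24 for Pkp1. The cause was not tested.

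With the longest transcript as length, Dsc1 made up 32.8%, 23.0% and 31.7% and Dsc3 62.4%, 75.6% and 65.5% of the desmocollins, and Dsg2 1.31%, 3.15% and 2.36% of the desmogleins, in UVB-exposed knockout, unexposed knockout and unexposed control epidermis. Only shares that moved by at least the SD of their group are listed. In UVB-exposed control epidermis the SDs were wide, at 5.36 for Dsc1 and 7.95 for Dsc3. Its shares use the same lengths, so all shares, and the order of levels per kilobase, rest on the length chosen.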
